A study of Mus musculus with 4 samples.

Results

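Macroautophagy is the pathway by which a cell encloses cytoplasm in a double membrane and passes it to the lysosome for degradation. A list of 43 genes for its machinery and its regulators was followed across 4 arrays of cultured mouse aortic smooth muscle cells. The genes were chosen by name and function, with earlier results of these data known. Every probe that a RefSeq accession tied to one of them was taken. They had 60 of the 28330 probes that named a gene and made up 43 of 21367 named genes. On all 4 arrays 41 of them were well above background. The protease gene Atg4a and the transcription factor gene Foxo3, with 1 probe each, were well above background on none and enter no comparison.

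Vascular smooth muscle cells came from the aortas of C57BL/6J mice, either wild type (WT) or LAMP-2AKO (L2AKO). Chaperone-mediated autophagy, which depends on the Lamp2 splice form LAMP-2A as its receptor, is a separate route that takes single proteins across the lysosomal membrane. Cells came from 5 aortas, were between passages 12 and 16, and spent 24 h in medium with 5% LPDS, the usual short form for lipoprotein-deficient serum. The WT control and L2AKO control groups had no LDL, and the WT LDL and L2AKO LDL groups had LDL at 150 µg/ml cholesterol with 0.1 U/ml bovine lipoprotein lipase. The labels leave unsaid if lipase was also added to the controls. Each group was 1 array of RNA pooled from a triplicate, so differences carry no replicate error, no test was run, and genotype cannot be told apart from any difference between the cultures used.

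In macroautophagy the ULK1 complex starts the process and the class III phosphatidylinositol 3-kinase (PI3-kinase) complex marks the forming membrane with PI3P. ATG9 vesicles and the ATG2 lipid transfer proteins feed the membrane, and a pair of ubiquitin-like conjugation systems attaches LC3 and GABARAP proteins (the ATG8 family) to it. Cargo receptors such as p62 bind both ATG8 proteins and the cargo. TFEB, TFE3 and MITF, the MiT/TFE factors, are transcription factors known for switching on lysosomal and autophagy genes. In smooth muscle cells macroautophagy is known for clearing damaged organelles and for breaking down stored lipid droplets.

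Values are normalised log2 signals: log2 of the scanner's background-corrected spot signal minus the 75th percentile of the same array, so 1 unit is 2-fold and 0 is the level of that percentile. They compare arrays for 1 gene and do not rank genes. Readings on the 4 arrays are given in the order WT control, WT LDL, L2AKO control, L2AKO LDL, and genotype differences (L2AKO minus WT) first without LDL and then with it. A gene was read on its probe with the highest mean signal, and a difference of at least 1.5-fold (0.58 log2 units) was counted. Spots of a probe printed repeatedly on 1 array had a median SD of at most 0.05, which gives 0.08 for a difference of 2 spots. This covers spread within an array and not that between cultures. The L2AKO LDL array lay on a slide of its own, and 7 of 8 spike-in controls there fell beyond the range seen on slide 1, with distances of -1.16 to 0.63 from the slide 1 mean. Slide and group cannot be told apart in comparisons that use that array. Lamp2 had 2 probes, of which the brighter differed by 0.04 between genotypes without LDL and the other by -1.38. The files do not say which of them lies in the deleted part, so neither checks the labels. Of 12 smooth muscle markers 8 were well above background on every array, while Myh11, Myocd, Lmod1 and Des were so on none. Their summed level was 251.0 to 276.0 times the 75th percentile, but single markers differed: in each genotype comparison 3 of 8 measured were at least 1.5-fold higher in L2AKO and 3 lower. Without LDL these were Tagln (1.27), Cnn1 (1.11) and Myl9 (0.80) against Actg2 (-1.73), Smtn (-0.995) and Acta2 (-0.75). Of 9 macrophage markers Cd68, Csf1r, Cd14, Itgam and Trem2 were well above background on all 4 arrays, and Adgre1, Ptprc and Mrc1 on none. Trem2 was higher in L2AKO by 3.39 and 2.49, Cd68 was higher by 1.85 and 1.79, and Cd14 differed by -0.63 and -0.86. Csf1r differed by 0.52 and 0.31, and Itgam by -0.16 and 0.83. Trem2 was near background in WT, at -3.79 and -3.61, where the lowest signals well above background were -4.23 and -4.40. The macrophage markers' summed level was 37.8, 32.8, 35.6 and 51.6 in array order. Of 7 endothelial markers Kdr and Vwf were well above background on all 4 arrays, and Cdh5, Tek, Emcn and Cldn5 on none, with summed levels of 4.52 to 5.74. Of 7 fibroblast markers 6 were measured, of which 3 were higher and 3 lower in L2AKO in each genotype comparison, while their sum stayed between 344.3 and 409.0. Without LDL Col3a1 differed by 6.15, Serpinf1 by 4.28, Pi16 by 4.14, Dcn by -1.69, Lum by -1.03 and Pdgfra by -0.61. Mitosis markers were lower in L2AKO for 11 of 11 measured, with a median of -3.29 without LDL and -3.01 with LDL. Their summed level was 91.2 and 82.4 on the WT arrays against 9.93 and 11.4 on the L2AKO arrays. Mesothelial and epithelial markers summed to 62.8 and 58.1 in WT and to 17.8 and 20.5 in L2AKO, with 4 of 5 measured lower in L2AKO in both comparisons and Upk3b higher by 1.17 and 1.80. The part of all these markers in the differences between genotypes was not tested, and in such bulk samples fewer cells of a type and less RNA per cell cannot be told apart.

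Genotype without LDL was compared on 1 slide. Of 41 measured macroautophagy genes, 8 were at least 1.5-fold higher in L2AKO (19.5%, against 15.2% of 12593 measured genes) and 1 was lower (2.44%, against 16.6%). The higher genes were Mitf, Atg2b, Atg10, Nbr1, Pik3c3, Becn1, Atg12 and Tax1bp1, and the lower gene was Map1lc3a. The median difference of the 41 genes was 0.04, beside -0.01 for all measured genes. The central 95% of all measured genes ran from -1.99 to 1.79, so of the 41 genes only Mitf lay outside it.

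With LDL in both genotypes 6 of 41 were higher in L2AKO (14.6%, against 16.9% of 12934 measured genes) and 4 were lower (9.76%, against 20.5%). The higher genes were Mitf, Atg2b, Calcoco1, Pik3c3, Wipi2 and Sqstm1. The lower ones were Map1lc3a, Bnip3, Ulk2 and Rb1cc1. Their median was 0.14, beside -0.05 for all measured genes. Scaling by the array median, under which the all-gene median shifted by 0.20, gave 12 higher and 1 lower in place of 6 and 4. The genotype comparisons without and with LDL share no array. Mitf, Atg2b and Pik3c3 were higher and Map1lc3a was lower in both, which is 4 of 41 genes, against 25.7% of the 12491 genes measured on every array.

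**Figure D1:**
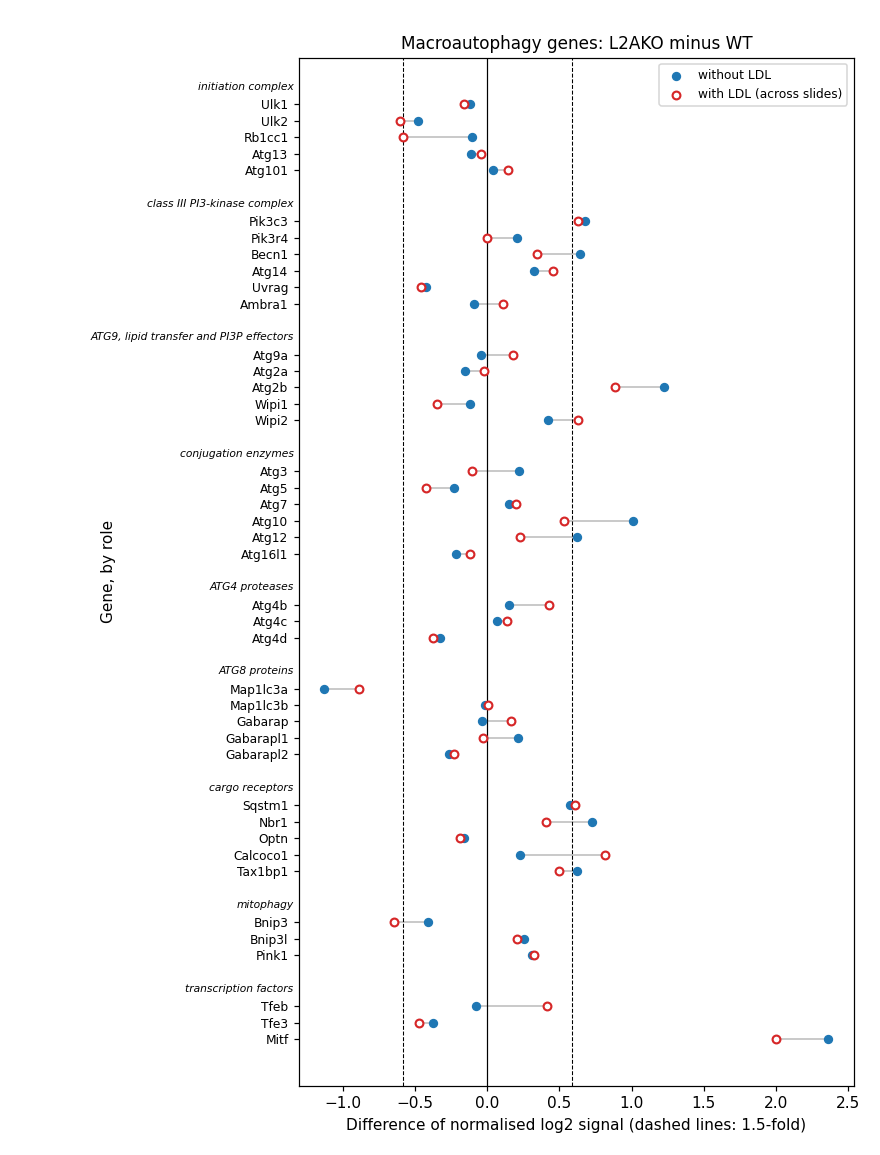
Difference of normalised log2 signal between L2AKO and WT for the 41 macroautophagy genes above background, grouped by role, without LDL (filled) and with LDL (open). Dashed lines mark 1.5-fold. Mitf lies farthest to the right at 2.37 and 2.00, and Map1lc3a farthest to the left at -1.13 and -0.89.

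Among the transcription factors, Mitf stood apart from its relatives. Mitf, the MiT factor best known from pigment cells and osteoclasts, read 0.53, 0.26, 2.89 and 2.26. Both L2AKO arrays lay above both WT arrays, by 2.37 (5.15-fold) without LDL and by 2.00 with LDL. Without LDL this was the 167th highest of 12593 differences. The other Mitf probe read -0.43, -0.75, 1.93 and 1.45 in the same order, with genotype differences of 2.36 and 2.20. Within each genotype the LDL array was the lower one on both probes. On the brighter probe LDL minus control was -0.26 in WT and -0.63 in L2AKO, and on the other probe -0.33 and -0.48. The L2AKO value fell short of 1.5-fold in 6 of 9 alternative settings, where it ran from -0.57 to -0.47.

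Tfe3, which also binds the promoters of lysosomal genes, read 4.68, 4.70, 4.30 and 4.23. Its genotype differences of -0.38 and -0.47 were below 1.5-fold and opposite in sign to those of Mitf, and its other probe gave -0.50 and -0.49. Tfeb, the factor most studied as a regulator of autophagy genes, read -0.05, -0.49, -0.13 and -0.07 on the arrays in that order. The WT LDL array was the low one, so that LDL minus control was -0.43 in WT and 0.06 in L2AKO.

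MiT/TFE factors bind DNA at an E-box, CACGTG, which lies at the core of the CLEAR element of lysosomal genes. Because Mitf had the largest genotype difference of the list, the promoters of the other genes were searched for these letters, on both strands. RefSeq promoter windows on GRCm38.p6, from 250 bases before to 50 after a start site, matched 36 of the 43 genes with 45 windows. CACGTG lay in 5 of the 45 windows (11.1%), against 7.15% of 32851 windows of all genes. CACGTGAC, which contains it, lay in 3 (6.67%, against 2.25%), those of Atg3, Atg7 and Atg14. The CLEAR palindrome, which adds GT before CACGTGAC and so contains both, lay in 0 of the 45 and in 0.326% of all windows. The arrays' files name another build, so no probe position is set beside these windows. The stretches that hold CACGTG are shown 5′ to 3′ on the gene's strand, with the E-box in capitals.
Atg3 (chr16:45158708-45158790, plus strand): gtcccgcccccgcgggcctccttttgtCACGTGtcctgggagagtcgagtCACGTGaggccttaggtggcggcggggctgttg
Atg5 (chr10:44268298-44268357, plus strand): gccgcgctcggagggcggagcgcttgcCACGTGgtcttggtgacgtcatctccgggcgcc
Atg7 (chr6:114670937-114670996, plus strand): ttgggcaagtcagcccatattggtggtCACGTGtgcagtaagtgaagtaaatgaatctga
Atg14 (chr14:47568403-47568462, minus strand): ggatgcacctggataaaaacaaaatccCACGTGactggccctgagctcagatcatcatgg
Bnip3 (chr7:138909582-138909641, minus strand): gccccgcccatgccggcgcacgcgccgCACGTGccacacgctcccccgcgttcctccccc
Without LDL, L2AKO minus WT was 0.22 for Atg3, -0.23 for Atg5, 0.15 for Atg7, 0.33 for Atg14 and -0.41 for Bnip3. On the brightest probes none of these 5 reached 1.5-fold there, against 31.7% of all measured genes in either direction. Their signs were mixed, and the other Atg7 probe gave 0.75. The relation of the motif to these differences was not tested.

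Of 5 initiation complex genes, 0 passed 1.5-fold between genotypes without LDL, against 31.7% of all measured genes in either direction. With LDL 2 were lower in L2AKO, Ulk2 and Rb1cc1 (against 20.5%), and 0 were higher (against 16.9%). Ulk1, the kinase that starts autophagosome formation, read 4.93, 4.97, 4.81 and 4.81. Its 4 values spanned less than 0.2 log2 units. Ulk2, the related kinase, read 2.02, 2.23, 1.54 and 1.62 in that order, so both L2AKO arrays were below both WT arrays. The genotype difference was -0.48 without LDL and -0.61 with LDL, and the other Ulk2 probe gave -0.39 and -0.61. With LDL the value on the brighter probe was between -0.58 and -0.41 under 3 of the other scalings, short of 1.5-fold. Rb1cc1, which encodes the scaffold FIP200, gave readings that opposed each other on its 2 probes. The brighter read 1.24, 1.41, 1.13 and 0.83, with genotype differences of -0.11 and -0.59. The other read -0.16, 0.15, 0.65 and 0.81, with differences of 0.81 and 0.66. No direction between the genotypes can be given for Rb1cc1 from these probes. Atg13 and Atg101, the remaining subunits, differed between genotypes by -0.12 to 0.14.

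Members of the class III PI3-kinase complex were split. Pik3c3, the catalytic subunit VPS34, read 1.00, 1.07, 1.67 and 1.70. Both L2AKO arrays were above both WT arrays, with differences of 0.68 and 0.63 on this probe and of 0.73 and 0.46 on the other. Becn1, which encodes the scaffold Beclin 1, read 1.00, 1.12, 1.65 and 1.47, and was 1.56-fold higher in L2AKO without LDL and 1.27-fold higher with LDL. Atg14, the subunit that directs the complex to autophagosome formation, was higher by 0.33 and 0.46. Uvrag, which takes the place of Atg14 in the endosomal form of the complex, read 3.75, 3.68, 3.33 and 3.22. It was below WT on both L2AKO arrays, at -0.43 and -0.46, in the direction opposite to Atg14 and short of 1.5-fold. The regulatory subunit Pik3r4 differed by 0.20 and 0.00, and Ambra1, a Beclin 1 partner, by -0.09 and 0.11.

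Of the genes for membrane supply, Atg2b had the largest difference between genotypes, both without and with LDL. Atg2b, a lipid transfer protein that feeds the growing membrane, read -0.54, -0.23, 0.69 and 0.66. Its levels in L2AKO were 2.34-fold those in WT without LDL and 1.85-fold with LDL, on its only probe. Its paralogue Atg2a read 1.60, 1.59, 1.44 and 1.57, with genotype differences of -0.16 and -0.03. Without LDL the Atg2b and Atg2a differences thus had opposite signs. With LDL the Atg2a value was smaller than the 0.08 for a difference of 2 spots, so no sign is read from it. Wipi2, a PI3P reader that recruits Atg16l1, read 1.51, 1.49, 1.93 and 2.12. It was 0.42 higher without LDL and 0.63 higher with LDL in L2AKO, while its other probe gave 0.06 and 0.20, and the mean of both probes with LDL was 0.41. Wipi1, the related PI3P reader, read 3.42, 3.35, 3.30 and 3.01, lowest on the L2AKO LDL array. Atg9a, the membrane protein of ATG9 vesicles, differed by -0.04 and 0.18.

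In the conjugation systems Atg10 and Atg12 were higher in L2AKO without LDL. Atg10, the E2-like enzyme that transfers Atg12 onto Atg5, read 0.05, 0.20, 1.06 and 0.73 in array order. It was 2.02-fold higher in L2AKO without LDL and 1.45-fold higher with LDL, and its other probe gave 0.72 and 0.69. Atg12, the ubiquitin-like protein itself, read 4.29, 4.29, 4.91 and 4.51. The L2AKO control array stood above the other 3, with a difference of 0.62 from WT control, 0.32 on the other probe and 0.47 as the mean of both. Atg5, to which Atg12 is attached, went the other way, at -0.23 and -0.42. Atg3, the E2-like enzyme of LC3, differed by 0.22 and -0.10, and Atg16l1, which brings the conjugate to the membrane, by -0.22 and -0.12. Atg7, the E1-like enzyme of both systems, differed by 0.15 and 0.20 on the brighter probe but by 0.75 and 0.76 on the other. Of the ATG4 proteases, which process ATG8 proteins, Atg4b differed by 0.15 and 0.43, Atg4c by 0.06 and 0.14, and Atg4d by -0.33 and -0.38. Atg4d read 2.93, 2.76, 2.60 and 2.38, lower on both L2AKO arrays.

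**Figure D2:**
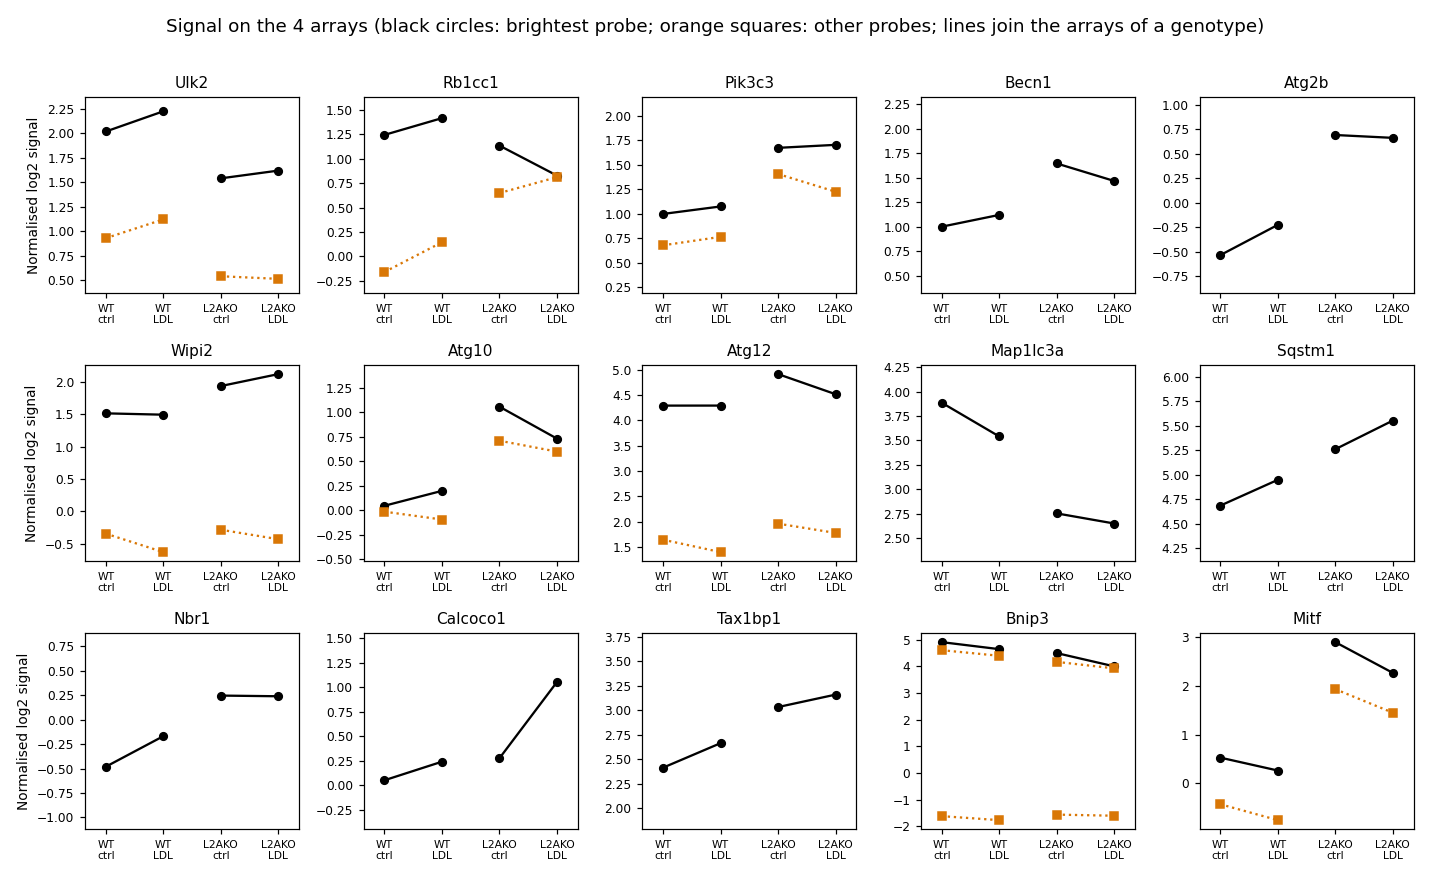
Normalised log2 signal on the WT control, WT LDL, L2AKO control and L2AKO LDL arrays for the 15 macroautophagy genes with a difference of at least 1.5-fold in any comparison of 2 arrays. Circles are the brightest probe and squares the other probes, 1 point per array, with lines joining the arrays of a genotype. Both probes of Mitf, Ulk2, Pik3c3 and Atg10 differ between genotypes in the same direction, and those of Rb1cc1 in opposite directions.

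The ATG8 family held the only gene at least 1.5-fold lower in both genotype comparisons. Map1lc3a, which encodes the LC3 protein LC3A, read 3.89, 3.54, 2.76 and 2.65. Both L2AKO arrays lay below both WT arrays, by 2.19-fold without LDL and 1.85-fold with LDL, and the call held in all 9 alternative settings for both comparisons. Map1lc3b, whose protein LC3B is the usual marker of autophagosomes, read 7.11, 6.96, 7.10 and 6.97. Its genotype differences were -0.02 and 0.00. Gabarap read 7.47, 7.28, 7.44 and 7.45, Gabarapl1 7.50, 7.65, 7.71 and 7.62, and Gabarapl2 5.53, 5.42, 5.26 and 5.19. These family members, which share the membrane anchoring of LC3, differed between genotypes by -0.27 to 0.22.

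Of 5 cargo receptors, 2 were at least 1.5-fold higher in L2AKO without LDL, Nbr1 and Tax1bp1 (against 15.2% of all measured genes). With LDL 2 were higher, Calcoco1 and Sqstm1 (against 16.9%). In either comparison 0 were lower, against 16.6% of all measured genes without LDL and 20.5% with LDL. The median difference of the 5 receptors was 0.58 without LDL and 0.50 with LDL, beside -0.01 and -0.05 for all measured genes. Sqstm1, which encodes p62, the receptor for ubiquitin-tagged cargo, read 4.68, 4.95, 5.26 and 5.55. The L2AKO arrays were above the WT arrays by 0.58 (1.49-fold, just under the count) and 0.61 (1.52-fold), and the LDL arrays were above their controls by 0.26 and 0.29. Nbr1, the related receptor, read -0.48, -0.17, 0.25 and 0.24, with differences of 0.73 and 0.41. After normexp correction the Nbr1 difference without LDL was 0.57. Tax1bp1, another ubiquitin-binding receptor, read 2.41, 2.66, 3.03 and 3.16, with differences of 0.62 and 0.50. All of Sqstm1, Nbr1 and Tax1bp1 had both L2AKO arrays above both WT arrays. Calcoco1, a receptor for parts of the endoplasmic reticulum, read 0.05, 0.24, 0.27 and 1.05, so that 1 array, L2AKO LDL, stood apart. Optn, a receptor in mitophagy, differed by -0.16 and -0.19.

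Among the mitophagy genes, Bnip3 and its paralogue differed in sign. Bnip3, a mitochondrial receptor known as a target of hypoxia signalling, read 4.91, 4.65 and 4.50 on the first 3 arrays and was lowest on the L2AKO LDL array, where LDL minus control was -0.50. Its genotype differences were -0.41 and -0.65. The other Bnip3 probes gave -0.44 and 0.06 without LDL and -0.47 and 0.17 with LDL. With LDL the call was lost in 6 of 9 alternative settings, with values from -0.58 to -0.32. Bnip3l, also called Nix, read 5.25, 5.31, 5.50 and 5.51, and its 4 probes were higher in L2AKO by 0.23 to 0.65 without LDL and by 0.13 to 0.68 with LDL. Pink1, the kinase that marks damaged mitochondria, read 3.68, 3.66, 3.99 and 3.99, with differences of 0.31 and 0.33.

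LDL itself went with small differences. In WT, LDL went with a 1.5-fold higher signal for 0 of 41 macroautophagy genes (against 1.25% of 12977 measured genes) and a lower one for 0 (against 2.46%). The values ran from -0.43 for Tfeb to 0.31 for Nbr1, with a median of -0.02 beside -0.05 for all measured genes. In L2AKO, 1 of 41 was higher (2.44%, against 3.34% of 13008 measured genes) and 1 was lower (2.44%, against 4.55%). These were Calcoco1, 0.78 higher with LDL, and Mitf. The median in L2AKO was -0.01, beside -0.08 for all measured genes. The LDL differences of the genotypes share no array, and 23 of 41 genes had the same sign in both. The matching share of all measured genes was not computed, so the count is not read as a trait of the list.

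**Figure D3:**
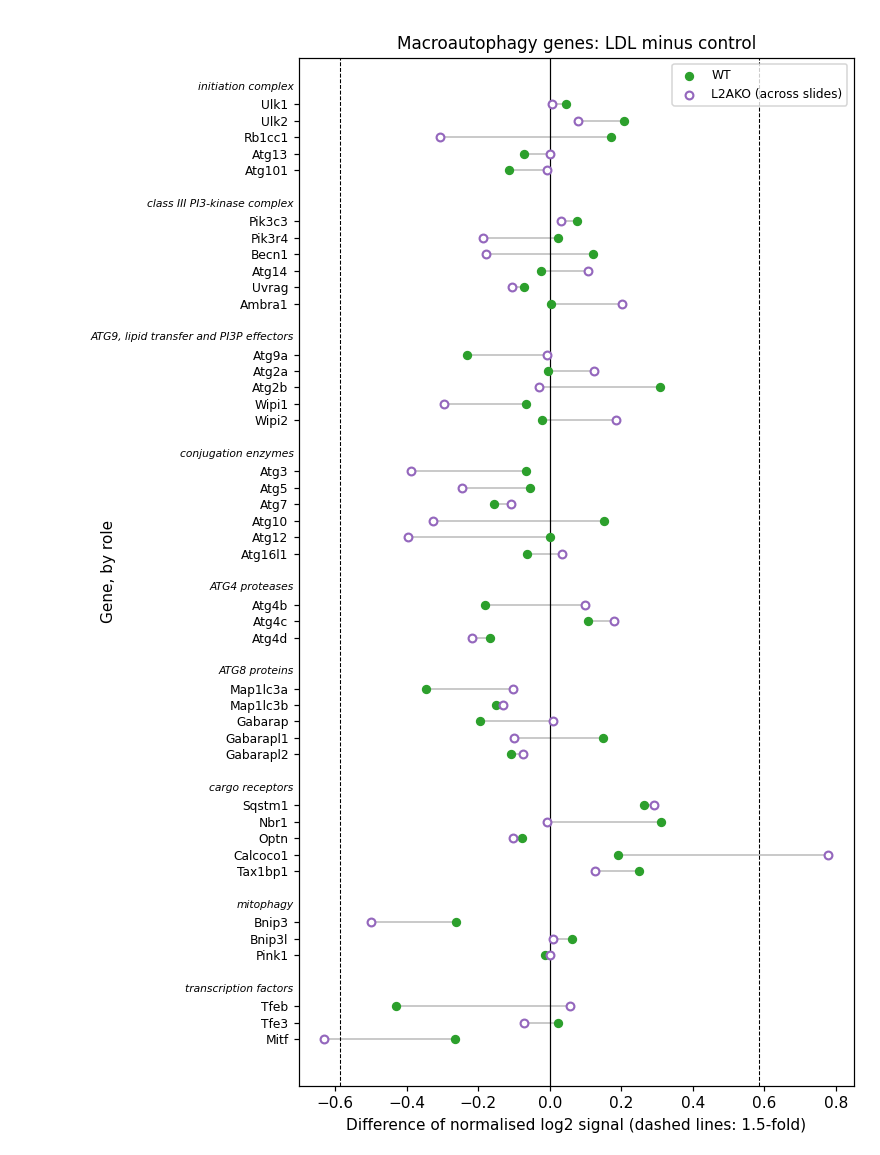
Difference of normalised log2 signal between LDL and control for the 41 macroautophagy genes, in WT (filled) and in L2AKO (open, across slides). Dashed lines mark 1.5-fold. The WT points lie between -0.43 and 0.31, and in L2AKO only Calcoco1 (0.78) and Mitf (-0.63) pass a dashed line.

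Set against each other, the LDL differences diverged by 1.5-fold for 1 of 41 genes in the upward direction (2.44%, against 4.77% of 12491 measured genes) and for 0 downward (against 3.99%). Calcoco1 was that gene, at 0.59 more in L2AKO than in WT, with 0.56 after normexp correction and 0.58 in the authors' deposited values. Tfeb followed at 0.49. At the other end were Atg10 at -0.48 and Rb1cc1 at -0.48. Each of these values uses the L2AKO LDL array on its own slide.

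Other genes of the pathway were read from a list of 79 that act upstream of, beside or after these members. Without LDL, 7 of 74 measured were at least 1.5-fold higher in L2AKO (against 15.2% of all measured genes) and 6 were lower (against 16.6%), with a median of 0.06. Prkaa2, a catalytic subunit of the energy sensor AMPK, was at -1.85, the stress gene Sesn3 at -1.49 and the adaptor Tollip at -0.97. Prkaa2 read -3.65 on the L2AKO control array, where the lowest signal well above background was -4.33. The other Tollip probes gave -1.24 and -0.23. Highest were the hypoxia factor gene Hif1a (1.08), Ccpg1, a receptor for the endoplasmic reticulum (1.07), and Deptor, an mTOR inhibitor (1.01). Deptor read -1.46 and -1.09 in WT and -0.45 and -0.10 in L2AKO, control before LDL. Bnip3 differed by -0.41, -0.44 and 0.06 on its 3 probes in the same comparison, and its relation to Hif1a was not tested.

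With LDL in both genotypes 7 of 74 were higher (against 16.9%) and 7 lower (against 20.5%), with a median of -0.05. Prkaa2 was at -2.39, Tollip at -1.22 and Sesn3 at -1.19. Tsc2, an mTOR brake, was at 1.30 and Ccpg1 at 1.26. Prkaa2 on the L2AKO LDL array (-4.20) and Tsc2 on the WT LDL array (-3.70) were near background. The lowest signals well above background on these arrays were -5.08 and -4.40. The other Tollip probes gave -0.99 and 0.45, so its probes did not share a sign. Rragb, which helps bring mTOR to the lysosome, was well above background in WT only. In L2AKO its signal was lower by at least 3.64-fold without LDL and at least 5.63-fold with it, taking the lowest signal well above background on the dim array as its level there. Rragb was named after its values were seen.

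Of the same list, 1 of 75 was higher with LDL in WT (against 1.25% of all measured genes) and 0 were lower (against 2.46%). That gene was Wdfy3, an adaptor for aggregates, at 0.85 on its brighter probe and 0.14 on the other. In L2AKO 2 of 74 were lower with LDL (against 4.55%), Hif1a at -0.67 and Sh3glb1, a Beclin 1 partner through Uvrag, at -0.62. The other Sh3glb1 probe gave 0.14, and all these L2AKO values were taken across slides. Fusion genes, which join the autophagosome to the lysosome, had 15 of 15 members measured. Without LDL 1 of these was higher in L2AKO, Fyco1 at 0.67 (against 15.2% of all measured genes), and 0 were lower (against 16.6%). Between genotypes with LDL 0 passed 1.5-fold (against 37.4% in either direction). For LDL minus control 0 did in WT (against 3.71%) and 0 in L2AKO (against 7.89%). These counts are on the brightest probe, and another Stx17 probe gave 0.74 between genotypes without LDL.

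**Figure D4:**
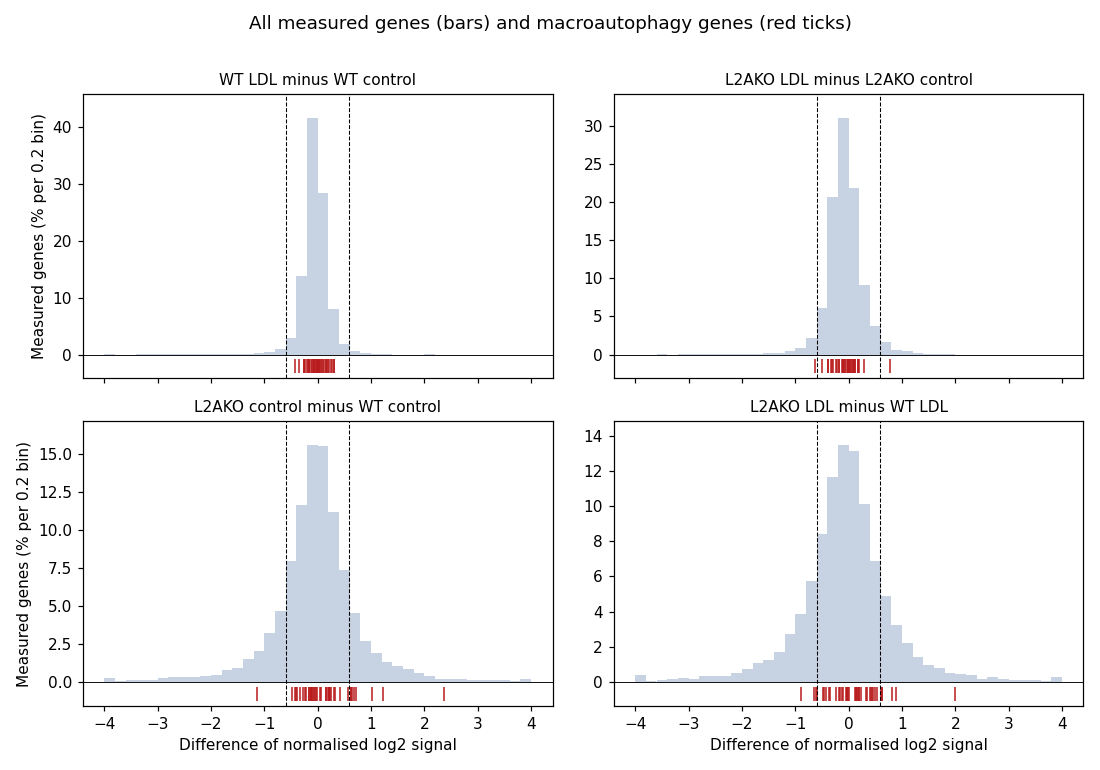
Differences of normalised log2 signal for all measured genes (bars, percent of genes in bins of 0.2; genes beyond 4 are placed in the outermost bins) and for the 41 macroautophagy genes (red ticks) in the 4 comparisons of 2 arrays. Dashed lines mark 1.5-fold. The genotype comparisons spread wider than the LDL comparisons, with an SD of 0.88 and 0.96 over all genes against 0.30 and 0.37.

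Over all 4 comparisons of 2 arrays, 26 of the 41 genes stayed within 1.5-fold on the brightest probe. The matching share of all measured genes was not computed. Between genotypes without LDL, 22% of the 41 genes passed 1.5-fold in either direction, against 31.7% of all measured genes. With LDL 24.4% did, against 37.4%. On that probe the 26 genes differed between genotypes by -0.43 to 0.33 without LDL and by -0.47 to 0.46 with LDL. Dimmer probes of 2 of them passed 1.5-fold in both comparisons, at 0.75 and 0.76 for Atg7 and at 0.65 and 0.68 for Bnip3l. The other probes of the list's genes gave 17 further readings. Without LDL 13 of 17 had the sign of the brighter probe between genotypes, and with LDL 14 of 17. For LDL minus control 12 of 17 did in WT and 10 of 17 in L2AKO. For genes past 1.5-fold between genotypes, 3 of 4 other probes passed it the same way without LDL. With LDL 2 of 7 did, and 2 had the opposite sign.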

How the data were processed

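The deposited scanner files held spot intensities on a linear scale, made with Agilent Feature Extraction 10.7.3.1 and background-subtracted by it, per the file headers. A value table deposited by the authors gave linear intensities, with column medians of 57.6, 57.6, 57.5 and 57.4. Its ranks tracked each array's median spot signal. The submitters' processing notes name oligo and RMA, but how that table was scaled between arrays stays unknown.

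Control spots and population or uniformity outliers were left out. Repeated spots were averaged on the log2 scale, which left 55679 probes, and the 75th percentile of each array was subtracted. Probes were named through RefSeq accessions in a GRCm38.p6 gene table: 28330 matched 1 gene and 27349 stayed unnamed. A gene entered a comparison if its probe with the highest mean passed the scanner's background test on each array compared. By rule, readings on all 4 arrays are printed for members past 1.5-fold in any comparison of 2 arrays and for the member with the highest mean in each role group. Readings of Tfeb, Atg2a, Map1lc3b, Gabarap, Gabarapl2 and Pink1, of other probes, and of Fyco1, Rragb and the promoter genes were added after their values were seen. Of other pathway genes the 3 highest and 3 lowest per comparison are named, except 1 that is not reported here. The members and lists were chosen with earlier results of these data known. The 9 alternatives were 3 scalings, normexp (offset 50, median spot signal) with quantile normalisation, the authors' values, 3 filters and the mean over probes. R 4.3.3, limma 3.58.1, Python 3.11.15, numpy 2.4.6, pandas 2.3.3 and matplotlib 3.10.9 were used.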

Additional observations from a re-analysis of the deposited data

Results flagged for a closer look

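Rb1cc1 differed with LDL in opposite directions in the 2 genotypes, by 0.17 in WT and by -0.31 in L2AKO on its brighter probe, each more than 2 SDs of a difference of 2 spots. The difference between the genotypes was not tested, since each group had 1 array, and the L2AKO value was taken across slides. On the other Rb1cc1 probe the differences were 0.30 and 0.16, both in the same direction.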

How the results depend on the processing

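Among macroautophagy genes, the count lower with LDL in L2AKO (1) was 0 with median scaling, with scaling over probes above background on all arrays, after quantile normalisation, with normexp, on the authors' values and with the mean over probes, and 2 with no filter on dim probes. The count lower in L2AKO with LDL (4) was 1 with median scaling, with scaling over probes above background and after quantile normalisation, 2 after normexp, in the authors' values and with the mean over probes, and 5 with no filter on dim probes. Median scaling gave 12 higher there, 2 higher in the difference of LDL responses, and medians of 0.098 for LDL in L2AKO, 0.13 and 0.33 between genotypes without and with LDL, and 0.076 for the difference of responses. Scaling over probes above background gave a median of 0.087 for LDL in L2AKO. In the difference of responses the count higher was 0 after normexp and in the authors' values. With no filter on dim probes 1 gene was higher with LDL in WT and 1 lower in the difference of responses. Rb1cc1 between genotypes with LDL was 0.039 as the mean over its probes. The cause was not tested.

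Between genotypes without LDL, 7 to 9 genes were higher and 1 was lower over the 9 alternatives. Of all genes called between genotypes with LDL, 45.1% were higher, against 61.9% with median scaling. No paired analysis was possible because each group had 1 array. With 4 arrays, differences near 1.5-fold cannot be told from spread between cultures.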

Other observations

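After the values of Mitf were seen, 22 genes known as targets of MiT/TFE factors in osteoclasts, pigment cells or lysosomes were read on the same arrays. Without LDL 5 of 20 measured were at least 1.5-fold higher in L2AKO (against 15.2% of all measured genes) and 3 were lower (against 16.6%), with a median of 0.07. With LDL 5 were higher (against 16.9%) and 2 lower (against 20.5%), with a median of 0.10. The higher genes included Ctsk, the collagen-degrading cathepsin of osteoclasts, at 4.55 and 4.52, Acp5, their acid phosphatase, at 4.27 and 4.31, and the melanocyte antigen gene Mlana at 3.55 and 3.22. The lower genes were the survival gene Bcl2, at -0.93 and -1.24, the lysosomal protease gene Ctsd and the receptor gene Oscar without LDL, at -0.71 and -0.62, and the cell cycle kinase gene Cdk2 with LDL, at -0.62. Gpnmb, a widely used readout of these factors, differed by 0.40 and 0.35, and Mcoln1, the lysosomal calcium channel, by 0.13 and 0.07. Tyr and Pmel, pigment genes, differed by 0.17 and 0.07 without LDL and by -0.36 and 0.39 with LDL. Tyr was near background, with readings from -4.07 to -3.42. Atp6v0d2 was well above background on 0 arrays and Dct on 1, so neither was measured. The list was not tested, having been chosen after the values of Mitf were seen.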
